A study of Mus musculus with 18 samples.

Results

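The collagens are a family of extracellular matrix proteins whose alpha chains each come from a gene of their own. All genes whose symbol reads Col, a number, a and a number were taken, 42 of the 18193 genes that a probe set names as its only gene. Each gene was followed on 1 probe set, that with the highest mean log2 intensity over the 18 arrays, out of 82 collagen probe sets on the array. The 42 genes were split by the structures their proteins build into 11 fibrillar, 6 basement membrane and 25 other collagens. The other collagens comprised 9 fibril-associated types (the FACIT group), 5 type VI chains of beaded microfibrils, 4 transmembrane, 3 network-forming and 2 multiplexin genes, the anchoring fibril gene Col7a1 and Col26a1.

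In the interstitium and vessel walls, types I, III and V assemble into banded fibrils, of which type I gives tensile strength and type V sets the fibril diameter. Type IV chains instead form the sheet-like network of basement membranes beneath epithelium and around capillaries, and type VI forms microfibrils that connect cells and basement membranes to the fibrils. Types II, IX and XI are the fibril collagens of cartilage, which the lung holds in its airways. Toward birth the mesenchyme of the fetal lung thins and capillaries come to lie against the epithelium over a shared basement membrane.

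Lung RNA of BALB/c mouse fetuses was measured on 18 arrays at gestational day 17 (GD17) and 18 (GD18), with 3 arrays for each of 6 groups. The groups were vehicle males (17 m, 18 m), vehicle females (17 f, 18 f) and males whose dams received flutamide (17 flut, 18 flut), and females with flutamide were not among them. Flutamide, a blocker of the androgen receptor, was given to the dam under the skin at 1 mg daily from GD10 until the day before harvest, and the dams of the other groups received the vehicle in the same way. By the study's methods, each array carried a pool of 3 fetuses of 1 sex and 1 treatment from separate litters, sexed by their genital tract and by PCR for Sry. In 1 pool, 18 flut 3, Xist was high for a pool labelled male, while its Y-linked genes stayed above the female levels. With pooled fetuses the spread within a group is that between pools. The question was which genes differ in the fetal lung between the sexes and which respond to the blocked androgen signal. Values are log2 intensities, differences are log2 differences with the standard error (SE) of a model over all 18 arrays, and a gene is called when its adjusted p is under 0.05. Apart from the summed intensities of marker lists, in which bright probe sets weigh most, intensities of different probe sets were not set against each other. A lower signal from fewer collagen-producing cells and one from less RNA per cell cannot be told apart in whole-lung RNA.

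Several pools stood apart in genes of other tissues. Mean log2 intensity of the exocrine pancreas genes measured (8 of 10) was between 9.49 and 10.06 in 17 m 3, 17 f 2 and 17 f 3, and between 5.90 and 6.28 in the other pools, and 17 f 2 and 17 f 3 were also high in squamous epithelium genes (9.11 and 9.12). Pool 18 flut 1 was high in the skin keratins Krt1, at 10.21 against 4.89 to 5.29 in the other pools, and Krt10, at 11.22 against 7.63 to 8.59. Skeletal muscle genes (8) reached 9.86 in 18 f 2 and 10.81 in 18 flut 2, and liver genes (7 of 8) reached 12.16 in 18 m 3. The liver genes were also high in 17 m 3 (10.73), 17 f 2 (10.69), 17 f 3 (10.69) and 18 flut 2, which lay between 17 m 3 and 18 m 3, against 7.16 to 9.54 in the rest. In 18 flut 3, Xist lay at 11.95, against 8.15 and 8.08 in the other 18 flut pools, and between 12.33 and 12.51 in 18 f. Its Y-linked genes were lower than in the others of its group, with Eif2s3y at 7.21 against 8.04 and 8.16, and Kdm5d at 7.11 against 8.53 and 8.29. Both were above the 18 f means of 3.47 and 3.46. These levels go against a pool of males alone, and whether the library labelled 18 flut 3 holds female tissue was not tested. Values of 18 flut include it unless it is said to be left out. Without it, 16 collagen genes were called by day in the flutamide group and 0 between 18 m and 18 flut, and without 18 flut 1 these counts were 17 and 0, with Col25a1 no longer called by day, at 0.39 (adjusted p = 0.0641). Sftpc, which marks the alveolar epithelium of the lung, lay between 13.92 and 14.72 in all 18 pools.

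Of the 42 collagen genes, 13 had a mean below 6.38, the median of all probe sets, and only 4 of these were called in any comparison of 2 groups. In at least 1 of the 9 comparisons of 2 groups, 27 of the 42 genes were called, 15 of them in at least 3, and 15 in none. The matching shares over all genes were not counted. Each day comparison alone called between 26.7% and 39.6% of all genes, so these counts are not read as particular to collagens. Those called in none were Col2a1, Col4a6, Col6a4, Col6a5, Col7a1, Col8a1, Col9a2, Col10a1, Col11a2, Col12a1, Col16a1, Col17a1, Col19a1, Col22a1 and Col24a1, and the smallest adjusted p among them was 0.067.

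Promoter windows of some genes on which the results turn are shown here, and their part in the results was not tested. In the RefSeq annotation of GRCm38.p6, 33 of the 42 genes had a window of 250 bases before and 50 bases after the gene start. Of all 42 genes, 7 pairs are next to each other among protein-coding genes, including all 6 type IV chains: Col4a1 with Col4a2 on chromosome 8, Col4a3 with Col4a4 on chromosome 1 and Col4a5 with Col4a6 on the X chromosome. The first set holds type IV chains, for 5 of which the table had a window, and the second holds Col1a2 and Col5a1, called between males and flutamide-treated males at GD17. Capitals mark every match of 4 motifs on either strand. The GC box was searched as GGGCGG, and the CCAAT box as the letters of its name. The TATA box was searched as TATAAA, and the half-site of the androgen response element was searched as AGAACA. Matches may overlap, and each is a match of letters, not a bound site.
Col4a1, chr8:11312777-11313076, minus strand: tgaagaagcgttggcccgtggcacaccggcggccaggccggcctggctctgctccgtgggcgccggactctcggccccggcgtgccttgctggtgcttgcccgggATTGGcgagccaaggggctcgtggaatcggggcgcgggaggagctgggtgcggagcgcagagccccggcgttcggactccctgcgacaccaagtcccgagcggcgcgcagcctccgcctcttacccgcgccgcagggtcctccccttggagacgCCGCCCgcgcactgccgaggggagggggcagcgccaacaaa
Col4a2, chr8:11312555-11312854, plus strand: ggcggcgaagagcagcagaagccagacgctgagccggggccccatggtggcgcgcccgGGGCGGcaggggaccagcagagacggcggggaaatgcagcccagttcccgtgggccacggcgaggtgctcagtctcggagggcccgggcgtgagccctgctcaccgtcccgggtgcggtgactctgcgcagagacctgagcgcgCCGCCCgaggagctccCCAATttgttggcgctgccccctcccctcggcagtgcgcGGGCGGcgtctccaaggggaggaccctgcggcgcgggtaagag
Col4a4, chr1:82586800-82587099, minus strand: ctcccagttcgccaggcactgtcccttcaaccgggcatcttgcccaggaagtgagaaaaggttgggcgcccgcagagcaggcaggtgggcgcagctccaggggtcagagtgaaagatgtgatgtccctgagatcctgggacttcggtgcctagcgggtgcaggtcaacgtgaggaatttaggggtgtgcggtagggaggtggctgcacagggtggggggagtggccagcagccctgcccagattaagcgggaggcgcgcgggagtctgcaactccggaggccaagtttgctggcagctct
Col4a5, chrX:141475169-141475468, plus strand: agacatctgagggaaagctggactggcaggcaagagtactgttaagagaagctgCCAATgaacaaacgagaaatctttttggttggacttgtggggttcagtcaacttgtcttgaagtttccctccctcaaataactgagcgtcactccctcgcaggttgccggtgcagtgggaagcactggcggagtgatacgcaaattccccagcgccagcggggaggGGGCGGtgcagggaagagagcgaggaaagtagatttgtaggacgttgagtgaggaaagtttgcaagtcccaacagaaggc
Col4a6, chrX:141474027-141474326, minus strand: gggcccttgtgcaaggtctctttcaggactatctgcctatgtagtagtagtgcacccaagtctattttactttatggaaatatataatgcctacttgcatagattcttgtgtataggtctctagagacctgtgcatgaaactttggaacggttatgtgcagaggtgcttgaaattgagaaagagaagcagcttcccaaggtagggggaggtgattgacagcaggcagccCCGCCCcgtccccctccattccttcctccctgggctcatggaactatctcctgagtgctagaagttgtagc
Col1a2, chr6:4505368-4505667, plus strand: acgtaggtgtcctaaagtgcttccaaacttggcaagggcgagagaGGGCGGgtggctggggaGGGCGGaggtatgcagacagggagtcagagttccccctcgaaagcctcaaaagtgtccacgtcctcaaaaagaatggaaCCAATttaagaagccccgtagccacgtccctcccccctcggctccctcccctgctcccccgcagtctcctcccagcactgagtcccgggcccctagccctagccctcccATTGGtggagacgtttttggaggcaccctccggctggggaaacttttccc
Col5a1, chr2:27886175-27886474, plus strand: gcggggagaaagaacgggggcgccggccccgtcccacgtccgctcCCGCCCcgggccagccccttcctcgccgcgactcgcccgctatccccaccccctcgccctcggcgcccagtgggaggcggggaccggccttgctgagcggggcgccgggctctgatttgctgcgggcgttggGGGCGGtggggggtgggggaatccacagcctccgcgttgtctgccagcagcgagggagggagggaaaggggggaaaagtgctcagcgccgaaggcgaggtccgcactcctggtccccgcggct
The annotated starts of Col4a1 and Col4a2 lie 21 bases apart on opposite strands, so that their windows share 78 bases, and those of Col4a5 and Col4a6 lie 1343 bases apart, also on opposite strands. The GC box was found in the windows of 21 of the 33 collagen genes (63.6%) and in 35.7% of all 32851 windows of the table. For each motif the collagen share counts genes, while the other counts windows without a choice of gene type, so these shares are of unlike units. The other motifs were found in 39.4% of the collagen genes against 37.4% of all windows for the CCAAT box, 15.2% against 13.6% for the TATA box and 6.06% against 19% for the androgen half-site. The collagen windows also had more G and C, with a median of 59.8% against 52.7% over all windows. None of the 7 windows shown holds a match of the TATA box or the androgen half-site.

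More collagen genes were called between GD17 and GD18 than between the sexes or with flutamide, and the same held over all genes. Of all genes, 1.67% were called between the sexes on GD17 and 1.68% on GD18. Between males and flutamide-treated males these shares were 2.69% and 4.22%. In males 12 of the 42 genes were called higher on GD18 and 8 lower, in females 19 higher and 4 lower, and in flutamide-treated males 14 higher and 2 lower. Over all genes, 30.1% were called in either direction in males (17.7% higher, 12.4% lower), 39.6% in females (17.2% higher, 22.5% lower) and 26.7% in flutamide-treated males (13% higher, 13.8% lower). The median difference of the 42 genes was 0.06 in males, 0.15 in females and 0.18 in flutamide-treated males, against 0.03, -0.01 and -0.01 over all genes. Higher on GD18 in all 3 groups were 10 genes (Col4a1, Col4a2, Col4a3, Col4a4, Col6a1, Col6a2, Col6a3, Col13a1, Col14a1 and Col25a1), and only Col9a3 was lower in all 3. The shares of all genes called alike in all 3 groups were not counted, so these counts are not read as particular to collagens. Without the 3 pools high in pancreas genes, 17 genes were called in males, 17 in females and 17 in flutamide-treated males, with 11, 16 and 15 of them higher. Without 18 m 3 and 18 flut 3 the counts were 16, 24 and 17, and without the 2 muscle-high pools 22, 23 and 16.

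**Figure D1:**
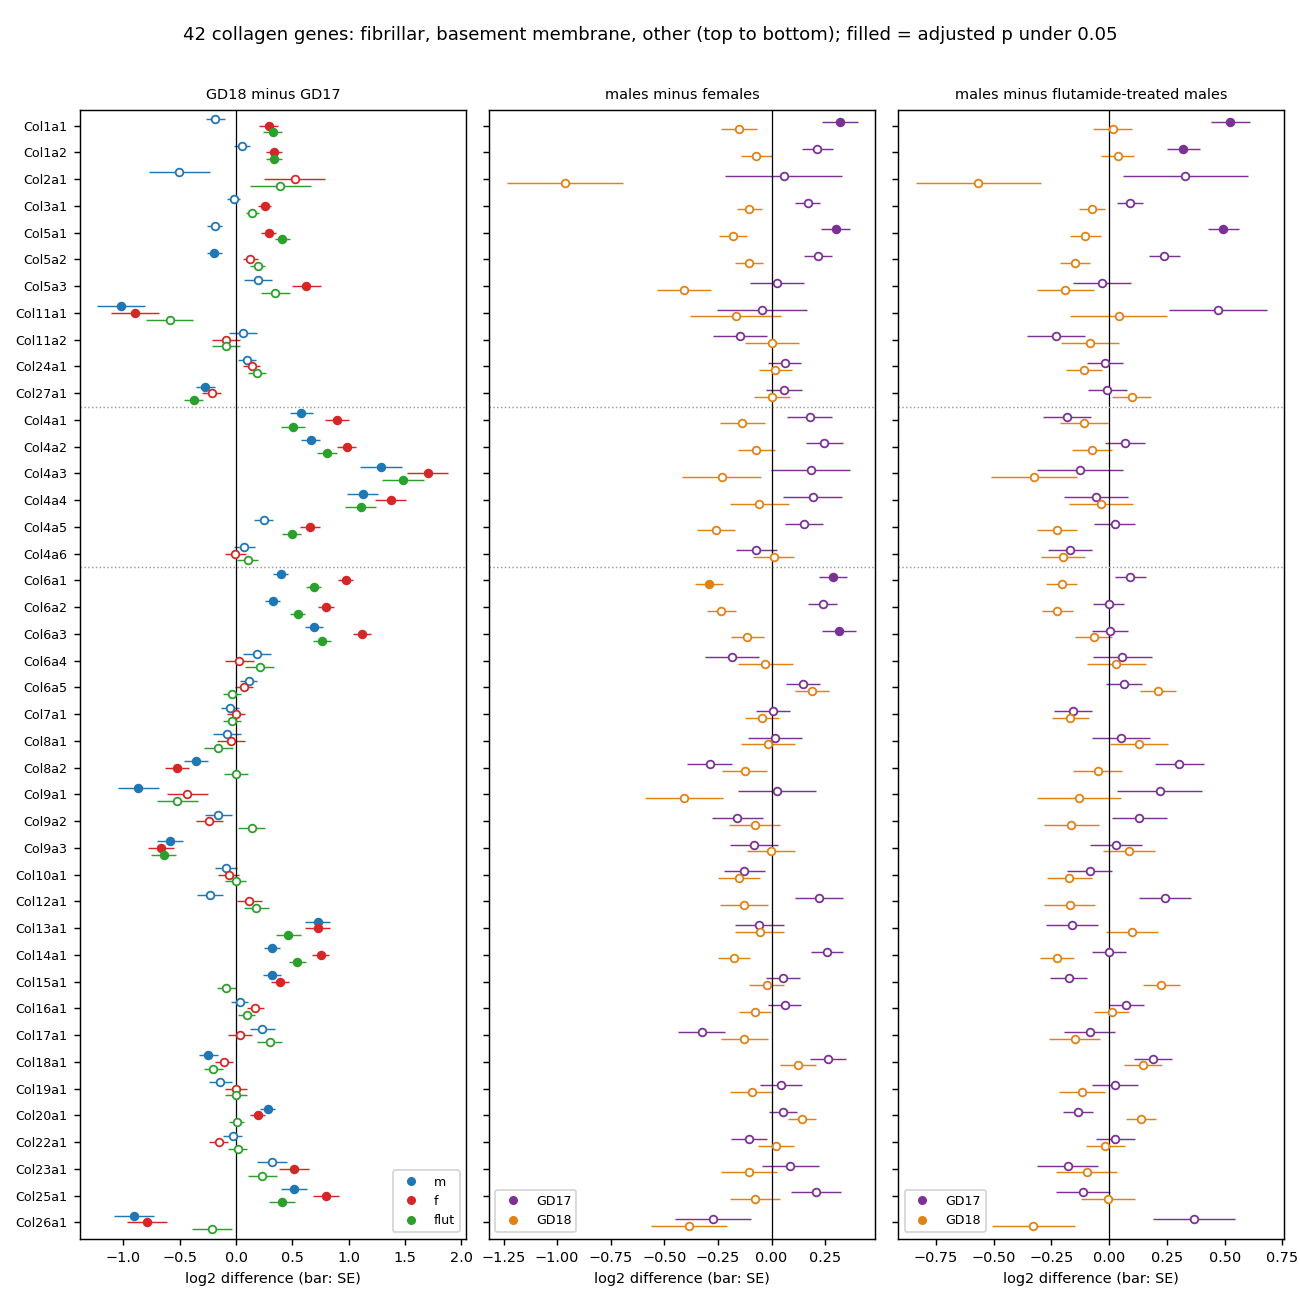
Log2 differences of the 42 collagen genes with their SE. The left panel shows GD18 minus GD17 in males (m), females (f) and flutamide-treated males (flut), the middle panel males minus females and the right panel males minus flutamide-treated males, each on GD17 and GD18. Filled points have an adjusted p under 0.05. The day differences reach 1.70 in Col4a3, while the 7 called differences of the GD17 comparisons with males lie between 0.29 and 0.52.

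The fibrillar genes Col1a1 and Col1a2, which encode the chains of type I, and Col5a1, a chain of type V, showed a male excess over the flutamide group at GD17, and Col1a1 and Col5a1 also one over females. At GD17, Col1a1 lay at 10.72, 10.60 and 10.64 in 17 m, at 10.24, 10.34 and 10.43 in 17 f and at 9.96, 10.22 and 10.22 in 17 flut. All 3 male pools were above every female and flutamide pool. The male excess over females was 0.32 (SE 0.08, adjusted p = 0.041) and that over flutamide-treated males 0.52 (SE 0.08, adjusted p = 0.0045), the latter a 1.44-fold higher intensity. The other probe set of Col1a1 had a smaller excess over flutamide-treated males that was not called, as given under the other observations.

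For Col5a1 the pools lay at 10.12, 10.06 and 9.96 in 17 m, at 9.66, 9.78 and 9.79 in 17 f and at 9.52, 9.54 and 9.60 in 17 flut. The 3 groups did not overlap, with males highest, females between and flutamide-treated males lowest. Males exceeded females by 0.30 (SE 0.07, adjusted p = 0.016) and flutamide-treated males by 0.49 (SE 0.07, adjusted p = 0.0017). Its partner chain Col5a2 lay at 11.85, 11.82 and 11.78 in 17 m, at 11.53, 11.61 and 11.66 in 17 f and at 11.56, 11.58 and 11.60 in 17 flut. Male pools were again above all others, but neither difference was called, with 0.22 (SE 0.07, adjusted p = 0.087) over females and 0.24 (SE 0.07, adjusted p = 0.059) over flutamide-treated males.

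Col1a2 lay at 12.23, 12.36 and 12.29 in 17 m, at 12.08, 12.08 and 12.08 in 17 f and at 11.92, 12.09 and 11.91 in 17 flut. Its male pools were above the others, and only the difference from flutamide-treated males was called, at 0.32 (SE 0.07, adjusted p = 0.024), against 0.21 (SE 0.07, adjusted p = 0.12) for that from females. Of all 42 collagen genes, 4 had a called male excess over females at GD17 and 0 were lower, against 1.67% of all genes called in either direction, 0.929% higher and 0.742% lower. In males against flutamide-treated males, 3 were called higher and 0 lower, against 2.69% of all genes in either direction, 1% higher and 1.69% lower. The median difference over the 11 fibrillar genes was 0.06 between the sexes and 0.24 with flutamide, and over all genes -0.05 and -0.04.

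The called sex differences at GD17 depended on single pools. With 17 m 1 or 17 m 2 left out 0 collagen genes were called, and with 17 m 3 left out 10. Without the 3 pools high in pancreas genes, which leaves a single female pool at GD17 that is assumed to vary like the rest, the differences were larger and not called, with 0.42 (adjusted p = 0.197) for Col1a1 and 0.42 (adjusted p = 0.0719) for Col5a1. With a term for these pools in the model, Col5a1 was still called at 0.30 (adjusted p = 0.0376), while Col1a1 was at 0.34 (adjusted p = 0.0572). In the comparison with flutamide, Col1a1 and Col5a1 were called without the 3 pools, at 0.53 (adjusted p = 0.0152) and 0.53 (adjusted p = 0.00579), and Col1a2 was not, at 0.32 (adjusted p = 0.0664). Lung fibroblasts are the cells that make most fibrillar collagen. Their markers were called in neither comparison at GD17 (0 of 7), against 1.67% and 2.69% of all genes, shares at which few calls among 7 would be seen. Of the 7, Fn1 was at 0.35 (SE 0.11, adjusted p = 0.083) between 17 m and 17 f, and Tbx5 at -0.07. Fn1 was called between 17 flut and 17 f, at 0.45 (adjusted p = 0.03). The summed intensity of the 7 ran from 20853 to 23277 in 17 m, 19763 to 21302 in 17 f and 22281 to 22555 in 17 flut. Of 8 lung epithelium markers, 1 was called between 17 m and 17 flut, Scgb1a1 (the club cell secretory protein), at -1.73 (adjusted p = 0.019), and 0 were called between 17 m and 17 f. Their summed intensity ran from 21547 to 26644 in 17 m and from 22041 to 23550 in 17 f, and was higher in every 17 flut pool, at 27487 to 28890. The part of the lung epithelium in the flutamide comparison was not tested. Bone markers, whose tissue is rich in type I, were called in none of the 9 comparisons (0 of 4), with summed intensities from 126.4 to 158.8 over all pools.

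On GD18 the order of the fibrillar genes was no longer that of GD17. Col1a1 lay at 10.32, 10.59 and 10.50 in 18 m, at 10.64, 10.66 and 10.58 in 18 f and at 10.45, 10.51 and 10.40 in 18 flut, and Col5a1 at 9.86, 9.88 and 9.83 in 18 m, at 10.08, 10.07 and 9.96 in 18 f and at 9.90, 10.08 and 9.90 in 18 flut. Female pools overlapped the male pools in Col1a1 and lay above them in Col5a1, and neither gene was called between males and the other groups. Col1a2 lay at 12.25, 12.46 and 12.34 in 18 m, at 12.51, 12.41 and 12.33 in 18 f and at 12.32, 12.27 and 12.35 in 18 flut, with all 3 groups overlapping. For Col5a2 the values were at 11.67, 11.72 and 11.48 in 18 m, at 11.75, 11.76 and 11.67 in 18 f and at 11.72, 11.84 and 11.75 in 18 flut, and those of males spread most.

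Within each group, the fibrillar genes changed unequally with day. From GD17 to GD18 Col1a1 differed by -0.18 (SE 0.08, adjusted p = 0.13) in males, where it was not called, and rose by 0.29 (SE 0.08, adjusted p = 0.013) in females and 0.33 (SE 0.08, adjusted p = 0.01) in flutamide-treated males. Col5a1 differed by -0.19 (SE 0.07, adjusted p = 0.05) in males, also not called, and rose by 0.29 (SE 0.07, adjusted p = 0.0026) in females and 0.41 (SE 0.07, adjusted p = 3.3e-04) in flutamide-treated males. Col1a2 rose by 0.34 (SE 0.07, adjusted p = 0.0013) in females and 0.34 (SE 0.07, adjusted p = 0.0025) in flutamide-treated males, against 0.05 (SE 0.07, adjusted p = 0.66) in males. Col3a1, the type III gene, rose only in the test of females, by 0.25 (SE 0.06, adjusted p = 0.0025), and Col5a2 was lower on GD18 in males at -0.19 (SE 0.07, adjusted p = 0.043). The Col1a1 rises did not pass without the 2 pools high in muscle genes, at 0.27 (adjusted p = 0.0522) in females and 0.30 (adjusted p = 0.0527) in flutamide-treated males. The male call of Col5a2 was lost without the pancreas-high pools, at -0.21 (adjusted p = 0.0775), and without 18 m 3 and 18 flut 3, at -0.12 (adjusted p = 0.217).

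The difference between these changes was tested directly. In the interaction of sex with day, that is the male minus female difference of GD18 less that of GD17, Col1a1 was at -0.47 (SE 0.12, adjusted p = 0.025) and Col5a1 at -0.48 (SE 0.09, adjusted p = 0.0057). In the interaction of flutamide with day, Col5a1 was at -0.60 (SE 0.09, adjusted p = 0.013), while Col1a1 did not pass at -0.51 (SE 0.12, adjusted p = 0.082). These 2 interactions share the male pools.

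**Figure D2:**
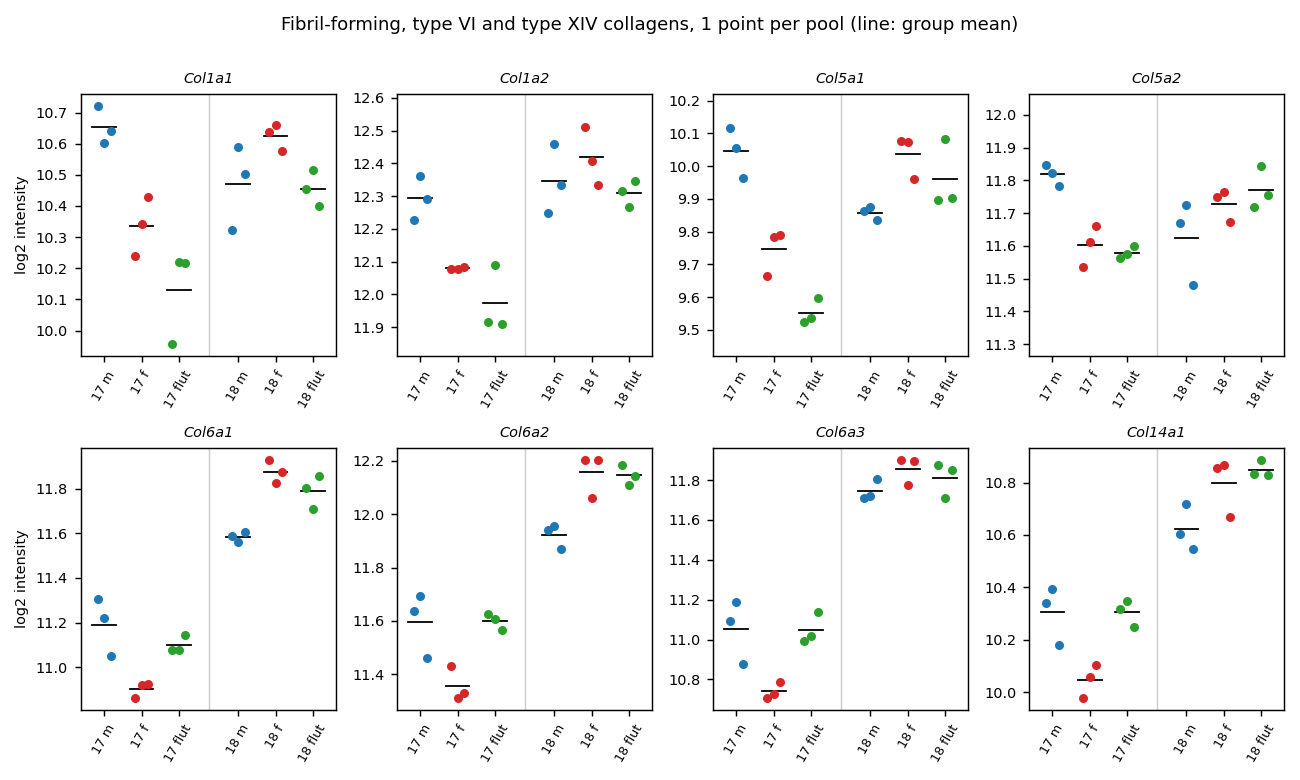
Log2 intensity of Col1a1, Col1a2, Col5a1, Col5a2, Col6a1, Col6a2, Col6a3 and Col14a1 in each of the 18 pools, with blue for males, red for females, green for flutamide-treated males and a line for the mean of each group. In Col1a1 and Col5a1 the GD17 male pools, from 10.60 and 9.96 upward, lie above every other GD17 pool, and in Col6a1 the GD18 female pools, from 11.82 upward, lie above every GD18 male pool.

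Of the less common fibrillar genes, Col5a3, another type V chain, lay at 5.60, 5.82 and 5.79 in 17 m, at 5.72, 5.67 and 5.74 in 17 f and at 5.79, 5.78 and 5.73 in 17 flut. On GD18 it lay at 5.70, 5.91 and 6.17 in 18 m, at 6.35, 6.30 and 6.35 in 18 f and at 5.80, 6.40 and 6.14 in 18 flut. It rose in females by 0.62 (SE 0.13, adjusted p = 8.5e-04), while the male and flutamide pools of GD18 were wide apart. Col27a1 was lower on GD18 in males at -0.27 (SE 0.09, adjusted p = 0.027) and in flutamide-treated males at -0.38 (SE 0.09, adjusted p = 0.0041), against -0.22 (SE 0.09, adjusted p = 0.063) in females, and its male call was lost without the pancreas-high pools, at -0.29 (adjusted p = 0.063).

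The type IV genes of the basement membrane had the largest median rise of the 3 classes from GD17 to GD18. Of the 6, 4 were called higher in males, 5 in females and 5 in flutamide-treated males, and 0 lower. Over all genes, 17.7%, 17.2% and 13% were called higher in the same order, and 12.4%, 22.5% and 13.8% lower. The median difference of the 6 was 0.62 in males, 0.94 in females and 0.66 in flutamide-treated males, against 0.03, -0.01 and -0.01 over all genes. Col4a1 and Col4a2 encode the chains of the common type IV network. At GD17, Col4a1 lay at 12.68, 12.53 and 12.17 in 17 m, at 12.34, 12.26 and 12.25 in 17 f and at 12.56, 12.69 and 12.69 in 17 flut, and at GD18 at 12.90, 13.03 and 13.20 in 18 m, at 13.24, 13.07 and 13.21 in 18 f and at 13.15, 13.17 and 13.13 in 18 flut. Every GD18 pool was above every GD17 pool. Col4a2 lay at 10.30, 10.22 and 9.98 in 17 m, at 9.90, 9.93 and 9.92 in 17 f and at 10.10, 10.09 and 10.10 in 17 flut, and on GD18 at 10.74, 10.80 and 10.94 in 18 m, at 10.95, 10.81 and 10.94 in 18 f and at 10.96, 10.75 and 10.99 in 18 flut. The rise of Col4a1 was 0.58 (SE 0.10, adjusted p = 6.7e-04) in males, 0.89 (SE 0.10, adjusted p = 5.5e-06) in females and 0.50 (SE 0.10, adjusted p = 0.0023) in flutamide-treated males. That of Col4a2 was 0.66 (SE 0.09, adjusted p = 4.0e-05), 0.98 (SE 0.09, adjusted p = 3.5e-07) and 0.81 (SE 0.09, adjusted p = 9.1e-06) in the same order. Both genes rose in each group, and a part of their close starts in this was not tested.

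Col4a3 and Col4a4, which with Col4a5 make the network found in alveolar and glomerular basement membranes, had the largest day differences of the family in each group. Col4a3 lay at 6.20, 6.37 and 5.99 in 17 m, at 6.05, 6.07 and 5.90 in 17 f and at 6.29, 6.29 and 6.37 in 17 flut. By GD18 the pools were at 7.86, 7.67 and 6.89 in 18 m, at 7.82, 7.79 and 7.51 in 18 f and at 8.02, 7.59 and 7.78 in 18 flut. Its rise was 2.43-fold in males, 3.25-fold in females and 2.8-fold in flutamide-treated males, or 1.28 (SE 0.19, adjusted p = 1.1e-04), 1.70 (SE 0.19, adjusted p = 2.8e-06) and 1.48 (SE 0.19, adjusted p = 3.4e-05) on the log2 scale. Pool 18 m 3, that high in liver genes, was the lowest of GD18, and without it and 18 flut 3 the male rise was 1.58.

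Col4a4 lay at 8.59, 8.90 and 8.14 in 17 m, at 8.28, 8.33 and 8.44 in 17 f and at 8.62, 8.58 and 8.60 in 17 flut. On GD18 its pools lay at 9.68, 9.64 and 9.69 in 18 m, at 9.83, 9.68 and 9.66 in 18 f and at 9.86, 9.48 and 9.77 in 18 flut. It rose by 1.12 (SE 0.14, adjusted p = 2.7e-05) in males, 1.37 (SE 0.14, adjusted p = 1.2e-06) in females and 1.10 (SE 0.14, adjusted p = 3.3e-05) in flutamide-treated males. Pool 17 m 3 was the lowest of all in Col4a4 and also the lowest male pool of GD17 in Col4a1, Col4a2, Col4a3 and Col4a5, and it is high in pancreas genes. Without the 3 pancreas-high pools the male rises were 0.44 for Col4a1, 0.57 for Col4a2, 1.19 for Col4a3 and 0.92 for Col4a4, all called.

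Col4a5 and Col4a6, neighbours on the X chromosome, differed. Col4a5 lay at 10.27, 10.18 and 9.99 in 17 m, at 9.90, 10.05 and 10.03 in 17 f and at 10.05, 10.16 and 10.15 in 17 flut, and on GD18 at 10.35, 10.46 and 10.35 in 18 m, at 10.82, 10.53 and 10.59 in 18 f and at 10.69, 10.52 and 10.63 in 18 flut. It rose by 0.65 (SE 0.09, adjusted p = 1.9e-05) in females and 0.49 (SE 0.09, adjusted p = 6.4e-04) in flutamide-treated males, and the male difference of 0.24 (SE 0.09, adjusted p = 0.051) was not called. Col4a6 lay at 5.93, 6.02 and 6.38 in 17 m, at 6.29, 6.08 and 6.17 in 17 f and at 6.30, 6.35 and 6.19 in 17 flut. Its GD18 pools lay at 6.15, 6.24 and 6.15 in 18 m, at 6.18, 6.23 and 6.10 in 18 f and at 6.39, 6.33 and 6.43 in 18 flut, below the median of all probe sets in most pools, and it was called in none of the day comparisons, with differences of 0.07 in males, -0.01 in females and 0.10 in flutamide-treated males. None of the 6 type IV genes was called between the sexes, with flutamide or in the interactions.

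**Figure D3:**
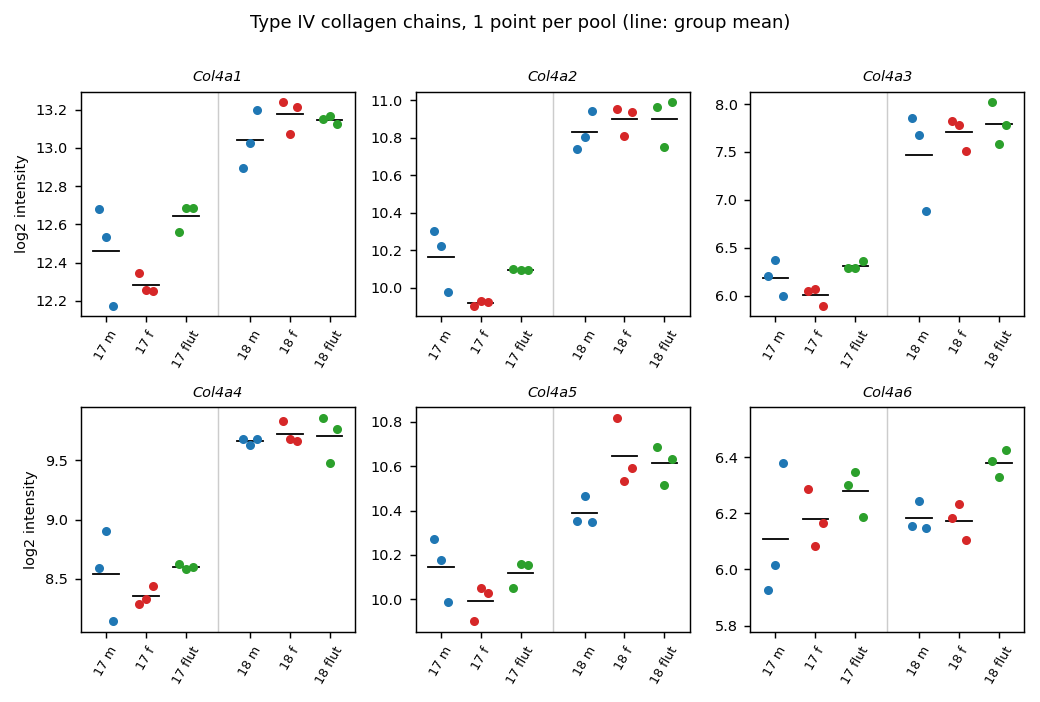
Log2 intensity of the 6 type IV collagen genes in each of the 18 pools, with blue for males, red for females, green for flutamide-treated males and a line for the group mean. Col4a1 to Col4a4 are higher in every GD18 pool than in every GD17 pool, and Col4a6 stays between 5.93 and 6.43.

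The list of partner genes of type IV in the basement membrane held laminins, nidogens, perlecan and agrin, and Sparcl1 was also put in it. Of the 14 genes measured, 11 were called higher on GD18 in males, 12 in females and 12 in flutamide-treated males, with 1 lower in each group. Over all genes, 17.7%, 17.2% and 13% were called higher in the same order, and 12.4%, 22.5% and 13.8% lower. The median differences were 0.39, 0.67 and 0.49. Lama3, a laminin chain of epithelial basement membranes, rose by 1.07, 1.50 and 1.07 in males, females and flutamide-treated males (adjusted p = 2.2e-05, 3.0e-07 and 2.2e-05). Lama5 rose by 0.69, 0.99 and 0.70, and Agrn by 0.65, 0.91 and 0.71. The lower gene in each group was Lama1, the laminin chain of early embryonic basement membranes, which fell by 0.45 in males (adjusted p = 0.0032), 0.43 in females (adjusted p = 0.0027) and 0.33 in flutamide-treated males (adjusted p = 0.026). Hspg2, which encodes perlecan, was not called in any group. At GD17, Lamc1 showed a male excess over females of 0.31 (adjusted p = 0.032) and Sparcl1 a male minus flutamide difference of -0.20 (adjusted p = 0.048). In the sex by day interaction Lamc1 was at -0.46 (adjusted p = 0.018) and Sparcl1 at -0.28 (adjusted p = 0.04).

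**Figure D4:**
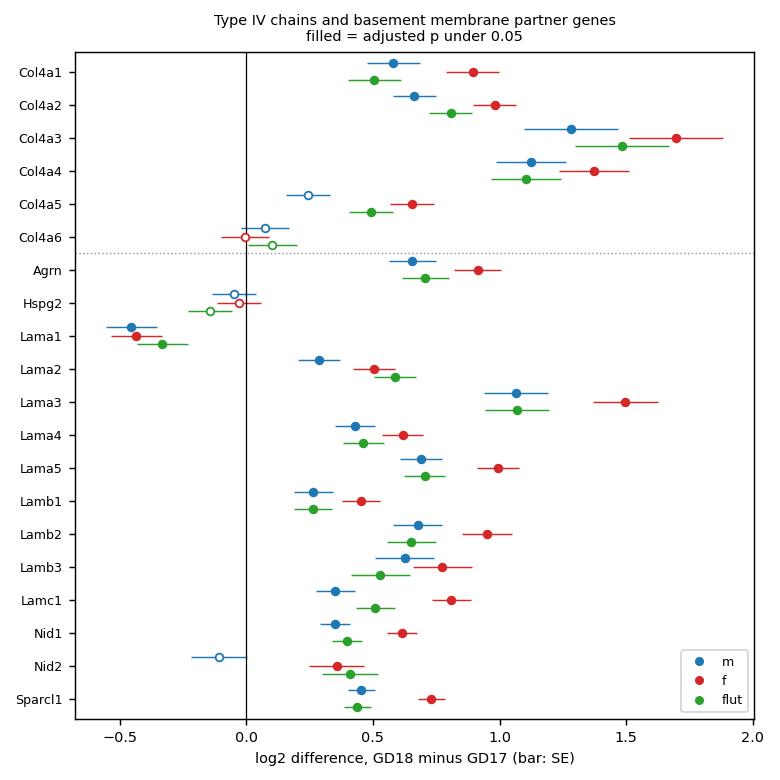
Log2 difference from GD17 to GD18 with its SE for the 6 type IV genes (above the dotted line) and 14 genes of the partner list, in males (blue), females (red) and flutamide-treated males (green). Filled points have an adjusted p under 0.05. Lama1 lies left of 0 in all 3 groups, at -0.45, -0.43 and -0.33, and Col4a6 and Hspg2 have no filled point.

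Many but not all markers of cell types that rest on basement membranes were higher on GD18. Over all genes, 17.7% were called higher in males, 17.2% in females and 13% in flutamide-treated males. Of the 5 endothelial markers 3 were called higher in males, 4 in females and 4 in flutamide-treated males, with summed intensities of 2981 to 3579 in 17 m, 3121 to 3367 in 17 f and 3291 to 3432 in 17 flut. On GD18 these ran from 3589 to 4926 in 18 m, 4657 to 5225 in 18 f and 4330 to 5499 in 18 flut. Of the 8 lung epithelium markers 6 were higher and 1 lower in each group. The lower one was Epcam, at -0.36, -0.56 and -0.47 in males, females and flutamide-treated males. Nkx2-1 was not called, with group means between 6.06 and 6.44, near the median of all probe sets (6.38). Sums of the 8, in which Sftpc weighs most, rose from between 21547 and 28890 on GD17 to between 40323 and 48880 on GD18. Of the 5 mesothelium markers 4, 3 and 3 were higher, with sums between 2463 and 3036 on GD17 and between 4224 and 5204 on GD18. Their part in the rise of type IV was not tested.

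The type VI genes Col6a1, Col6a2 and Col6a3, whose chains join in 1 molecule, rose in every group, and by most in females. Col6a1 lay at 11.30, 11.22 and 11.05 in 17 m, at 10.86, 10.92 and 10.93 in 17 f and at 11.08, 11.08 and 11.14 in 17 flut. The GD18 pools were at 11.59, 11.56 and 11.61 in 18 m, at 11.93, 11.82 and 11.87 in 18 f and at 11.80, 11.71 and 11.85 in 18 flut. All 3 male pools were above the female pools at GD17, by 0.29 (SE 0.07, adjusted p = 0.02), and below them at GD18, at -0.29 (SE 0.07, adjusted p = 0.036). It was the 1 collagen gene called between the sexes on GD18, where 1.68% of all genes were called in either direction, 1.43% higher in males and 0.242% lower. The GD18 difference of Col6a1 was not called without the 2 pools high in muscle genes, at -0.32 (adjusted p = 0.0538), without 18 f 1, 18 f 2, 18 m 1 or 18 m 2 alone, or in a fit of these groups alone. Its rise was 0.39 (SE 0.07, adjusted p = 3.9e-04) in males, 0.97 (SE 0.07, adjusted p = 7.0e-08) in females and 0.69 (SE 0.07, adjusted p = 5.2e-06) in flutamide-treated males.

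Col6a2, a neighbour of Col6a1 on chromosome 10, lay at 11.64, 11.69 and 11.46 in 17 m, at 11.43, 11.31 and 11.33 in 17 f and at 11.63, 11.61 and 11.57 in 17 flut. A day later it lay at 11.94, 11.96 and 11.87 in 18 m, at 12.20, 12.06 and 12.20 in 18 f and at 12.18, 12.11 and 12.14 in 18 flut. Males were not called apart from females on either day, with 0.24 (SE 0.07, adjusted p = 0.06) on GD17 and -0.23 (SE 0.07, adjusted p = 0.09) on GD18, though the pools did not overlap on either. It rose by 0.32 (SE 0.07, adjusted p = 0.0021), 0.80 (SE 0.07, adjusted p = 2.9e-07) and 0.55 (SE 0.07, adjusted p = 3.0e-05) in males, females and flutamide-treated males.

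Col6a3 lay at 11.09, 11.19 and 10.88 in 17 m, at 10.71, 10.73 and 10.78 in 17 f and at 10.99, 11.02 and 11.14 in 17 flut. On GD18 its pools lay at 11.71, 11.72 and 11.80 in 18 m, at 11.90, 11.78 and 11.89 in 18 f and at 11.88, 11.71 and 11.85 in 18 flut. Both males and flutamide-treated males were above females at GD17, by 0.31 (SE 0.08, adjusted p = 0.033) and 0.31 (SE 0.08, adjusted p = 0.04), and between these males the difference was 0.00 (SE 0.08, adjusted p = 0.99). From GD17 to GD18 it rose by 0.69 (SE 0.08, adjusted p = 1.4e-05) in males, 1.12 (SE 0.08, adjusted p = 8.2e-08) in females and 0.76 (SE 0.08, adjusted p = 8.0e-06) in flutamide-treated males. Without the pools high in pancreas genes the GD17 sex differences were 0.40 (adjusted p = 0.0666) for Col6a1 and 0.43 (adjusted p = 0.0807) for Col6a3, with a single female pool, and the excess of the flutamide group in Col6a3 was 0.34 (adjusted p = 0.332). No type VI gene was called between males and flutamide-treated males on either day. At GD17, for flutamide-treated males against females, 2 of the 42 genes were called (Col6a3 higher and Col8a2 lower), against 4.56% of all genes (2.15% higher and 2.41% lower).

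Col14a1, a fibril-associated collagen of type XIV, also rose in each group. It lay at 10.34, 10.39 and 10.18 in 17 m, at 9.98, 10.06 and 10.10 in 17 f and at 10.32, 10.35 and 10.25 in 17 flut. GD18 values stood at 10.60, 10.72 and 10.55 in 18 m, at 10.85, 10.87 and 10.67 in 18 f and at 10.83, 10.89 and 10.83 in 18 flut. The rise was 0.32 (SE 0.07, adjusted p = 0.0043) in males, 0.75 (SE 0.07, adjusted p = 9.6e-07) in females and 0.54 (SE 0.07, adjusted p = 6.5e-05) in flutamide-treated males, and the sex difference at GD17 was not called, at 0.26 (SE 0.07, adjusted p = 0.062).

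The test of sex by day called 6 collagen genes lower and 0 higher, against 4.77% of all genes in either direction, 3.89% higher and 0.885% lower. These were Col1a1 and Col5a1 (above), Col6a1 at -0.58 (SE 0.09, adjusted p = 0.0014), Col6a2 at -0.47 (SE 0.10, adjusted p = 0.0067), Col6a3 at -0.43 (SE 0.11, adjusted p = 0.031) and Col14a1 at -0.43 (SE 0.10, adjusted p = 0.019). A negative value means that the signed difference from GD17 to GD18 was lower in males, whether it was a rise or a fall. The signed difference with day was higher in females for 31 of the 42 genes, against 37.2% of all genes, and the median interaction was -0.14 in the 42 genes and 0.06 over all genes. On leaving out single pools the number of genes called was between 3 (without 18 f 1) and 11 (without 17 m 3), and without the 3 pancreas-high pools it was 5, with Col1a1 not called at -0.58 (adjusted p = 0.09). With a term for those pools Col6a3 was not called, at -0.39 (adjusted p = 0.0575), and without the 2 muscle-high pools neither Col1a1, at -0.45 (adjusted p = 0.0613), nor Col14a1, at -0.40 (adjusted p = 0.0578), was. The test of flutamide by day called Col5a1 alone, which was lower, against 0.17% of all genes (0.0824% higher and 0.0879% lower). The signed difference with day was higher in the flutamide group than in males for 30 of the 42 genes, against 37.5% of all genes.

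On GD18, 0 of the 42 genes were called between males and flutamide-treated males, against 4.22% of all genes (3.67% higher and 0.555% lower), and at an unadjusted p under 0.05 there were 3 higher and 5 lower. The smallest adjusted p was 0.08, for Col6a2 at -0.22 (SE 0.07). Between flutamide-treated males and females of GD18, 0 of 42 were called, against 0.165% of all genes (0.022% higher and 0.143% lower), with 1 higher and 1 lower at an unadjusted p under 0.05. Over the 42 genes the median difference of GD18 was -0.10 between males and females and -0.09 between males and flutamide-treated males, against 0.02 and 0.00 over all genes.

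Genes of the cartilage types were lower on GD18 or were not called. Col11a1, a chain of type XI, lay at 8.12, 7.73 and 7.81 in 17 m, at 7.84, 8.03 and 7.93 in 17 f and at 7.24, 7.50 and 7.51 in 17 flut. At GD18 the pools stood at 6.59, 6.99 and 7.03 in 18 m, at 6.87, 7.59 and 6.64 in 18 f and at 6.86, 7.17 and 6.46 in 18 flut. It fell by 1.02 in males (SE 0.21, adjusted p = 0.0019) and by 0.90 in females (SE 0.21, adjusted p = 0.0031), and the difference of -0.59 (SE 0.21, adjusted p = 0.06) in flutamide-treated males was not called. Col9a3, a chain of type IX, lay at 7.51, 7.30 and 7.32 in 17 m, at 7.31, 7.62 and 7.45 in 17 f and at 7.25, 7.45 and 7.34 in 17 flut. On GD18 it lay at 6.73, 6.82 and 6.83 in 18 m, at 6.73, 7.04 and 6.61 in 18 f and at 6.69, 6.88 and 6.54 in 18 flut. It was lower on GD18 in all 3 groups, at -0.59 (SE 0.11, adjusted p = 0.0011), -0.67 (SE 0.11, adjusted p = 1.8e-04) and -0.64 (SE 0.11, adjusted p = 5.7e-04). Its partner Col9a1 was lower in males, at -0.87 (SE 0.18, adjusted p = 0.0021), and not called in females or flutamide-treated males, and Col9a2 was not called.

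Col2a1, the type II gene, lay at 7.60, 7.19 and 7.41 in 17 m, at 7.37, 7.35 and 7.31 in 17 f and at 6.79, 7.19 and 7.23 in 17 flut. By GD18 the pools were at 6.88, 6.84 and 6.98 in 18 m, at 7.66, 8.77 and 7.16 in 18 f and at 7.76, 7.42 and 7.21 in 18 flut. Male pools of GD18 were the lowest of that day, but the difference of -0.96 (SE 0.27, adjusted p = 0.082) from females was not called. Pool 18 f 2 was the highest of GD18 in Col2a1, Col11a1, Col9a3 and Cnmd, the chondromodulin gene of cartilage. Cnmd lay at 6.89 there, against 5.31 and 5.16 in the other 18 f pools. The mean log2 intensity of 11 cartilage markers was 6.58 in 18 f 2, against 6.30 and 6.26. Among these markers Acan, at 6.38 against 6.48 and 6.40, and Matn4, at 10.10 against 10.12 and 10.33, were lowest of 18 f in that pool. Without 18 f 2 and 18 flut 2, both high in muscle genes, the female differences with day were -1.18 for Col11a1 and -0.79 for Col9a3, and without the pancreas-high pools the female call of Col11a1 was lost, at -0.80 (adjusted p = 0.11). Of the 11 cartilage markers, 1 was called higher and 2 lower on GD18 in males, 3 and 1 in females, and 1 and 2 in flutamide-treated males. Over all genes, 17.7% were called higher and 12.4% lower in males, 17.2% and 22.5% in females, and 13% and 13.8% in flutamide-treated males. Sox9, a transcription factor of cartilage and of airway tips, was lower in each group, at -0.68, -0.54 and -0.52, and Matn4 was higher, at 0.97, 1.28 and 0.70. The summed intensity of the cartilage markers, in which Matn4 weighs most, ran from 1364 to 1765 on GD17 and from 1763 to 2059 on GD18. Their mean log2 intensity, in which each gene counts equally, ran from 6.34 to 6.50 on GD17 and from 6.20 to 6.58 on GD18. Comp and Matn1 stayed below 5.5 in all pools.

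**Figure D5:**
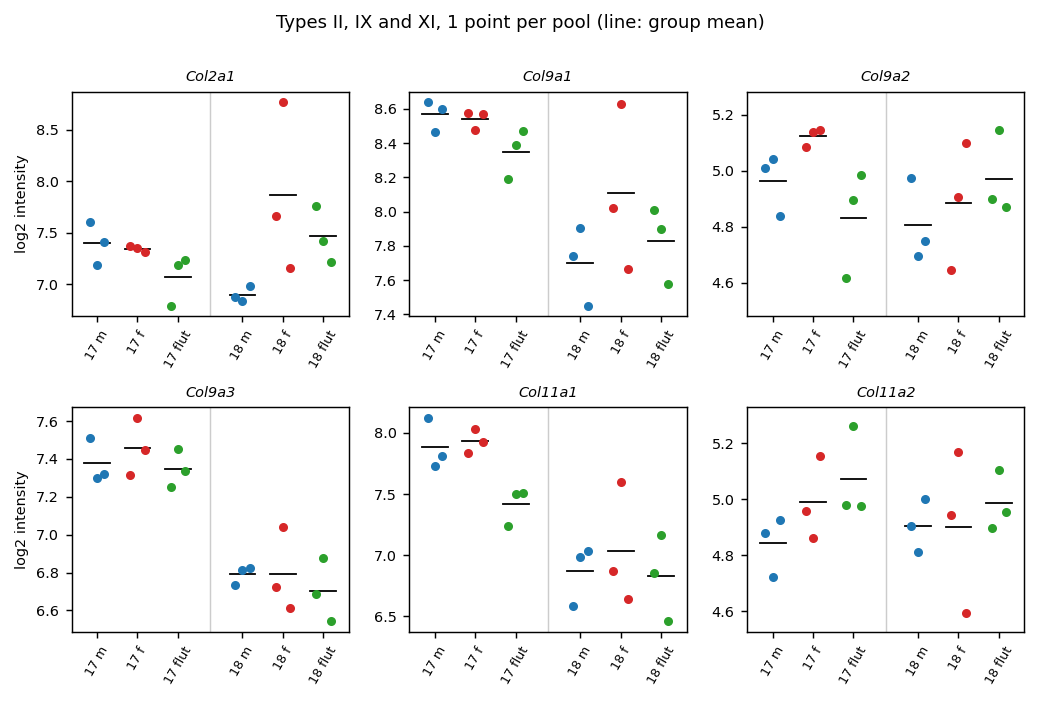
Log2 intensity of the genes of types II, IX and XI in each of the 18 pools, with blue for males, red for females, green for flutamide-treated males and a line for the group mean. Col9a3 and Col11a1 lie lower on GD18, and 18 f 2 stands above the other GD18 pools in Col2a1 at 8.77, Col9a1 at 8.63 and Col11a1 at 7.59.

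Of the 4 transmembrane collagens, Col13a1 and Col25a1 rose in all 3 groups, Col23a1 in females, and Col17a1 was not called. Col13a1, a transmembrane collagen of cell adhesion sites, lay at 8.95, 8.99 and 8.54 in 17 m, at 8.90, 8.85 and 8.89 in 17 f and at 9.12, 8.82 and 9.02 in 17 flut. The GD18 pools were at 9.48, 9.50 and 9.67 in 18 m, at 9.71, 9.54 and 9.56 in 18 f and at 9.58, 9.29 and 9.48 in 18 flut. It rose by 0.72 (SE 0.11, adjusted p = 2.1e-04) in males, 0.72 (SE 0.11, adjusted p = 9.3e-05) in females and 0.46 (SE 0.11, adjusted p = 0.0071) in flutamide-treated males. Col25a1 lay at 8.85, 9.0 and 8.34 in 17 m, at 8.55, 8.54 and 8.47 in 17 f and at 8.74, 8.91 and 8.87 in 17 flut. Its GD18 pools lay at 9.25, 9.26 and 9.22 in 18 m, at 9.42, 9.28 and 9.26 in 18 f and at 9.28, 9.30 and 9.16 in 18 flut. The rise of Col25a1 was 0.51 (SE 0.12, adjusted p = 0.0039), 0.80 (SE 0.12, adjusted p = 4.7e-05) and 0.41 (SE 0.12, adjusted p = 0.02) in the same order, and its male pools of GD17 were spread from 8.34 to 9.0. Without the 2 muscle-high pools the flutamide call was lost, at 0.38 (adjusted p = 0.0792). Col23a1 rose in females by 0.51 (SE 0.13, adjusted p = 0.0062), a call lost without the pancreas-high pools at 0.37 (adjusted p = 0.167).

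The multiplexins, which carry cleavable C-terminal fragments such as endostatin in Col18a1, were called in opposite directions in males. Col15a1 lay at 7.75, 7.79 and 7.64 in 17 m, at 7.77, 7.62 and 7.62 in 17 f and at 7.91, 7.88 and 7.91 in 17 flut. A day later it lay at 7.90, 7.98 and 8.24 in 18 m, at 8.09, 7.99 and 8.11 in 18 f and at 7.76, 7.89 and 7.79 in 18 flut. It rose by 0.32 (SE 0.08, adjusted p = 0.0086) in males and 0.39 (SE 0.08, adjusted p = 0.0011) in females, against -0.09 (SE 0.08, adjusted p = 0.55) in flutamide-treated males. Both rises did not pass without the pancreas-high pools, at 0.27 (adjusted p = 0.0508) and 0.29 (adjusted p = 0.101). Col18a1 was lower on GD18 in males, at -0.25 (SE 0.08, adjusted p = 0.041), with overlapping pools, and was not called without 18 m 3 and 18 flut 3, at -0.24 (adjusted p = 0.0863).

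Col8a2, a network-forming collagen, lay at 5.50, 5.41 and 5.64 in 17 m, at 5.62, 5.87 and 5.93 in 17 f and at 5.25, 5.06 and 5.33 in 17 flut. GD18 values stood at 5.21, 5.17 and 5.11 in 18 m, at 5.15, 5.52 and 5.19 in 18 f and at 5.11, 5.25 and 5.26 in 18 flut. Females had the highest mean at GD17, overlapping the males but not the flutamide pools, and the difference of flutamide-treated males from females was -0.59 (SE 0.11, adjusted p = 0.01), lost with a single female pool at -0.40 (adjusted p = 0.411). Col8a2 was lower on GD18 in males at -0.36 (SE 0.11, adjusted p = 0.021) and in females at -0.52 (SE 0.11, adjusted p = 0.001). Col26a1 was lower at -0.91 (SE 0.18, adjusted p = 0.0013) in males and -0.79 (SE 0.18, adjusted p = 0.0021) in females, and Col20a1, a fibril-associated type, was higher by 0.28 (SE 0.06, adjusted p = 0.0044) and 0.19 (SE 0.06, adjusted p = 0.03). The female calls of Col8a2, Col26a1 and Col20a1 were also lost without the pancreas-high pools, at -0.33 (adjusted p = 0.125), -0.49 (adjusted p = 0.149) and 0.14 (adjusted p = 0.4), as was the male call of Col8a2, at -0.30 (adjusted p = 0.0803). All 3 genes are among those below the median of all probe sets.

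Genes that act on collagen before and after secretion were counted by step. Over all genes, 30.1% were called by day in males, 39.6% in females and 26.7% in flutamide-treated males, in either direction. Whether the day counts of any step differ from these shares was not tested, and they are not read as particular to collagen processing. Of the 15 genes of hydroxylation and glycosylation, 3 were higher and 2 lower on GD18 in males, 6 and 6 in females, and 2 and 3 in flutamide-treated males. P4ha2, a subunit of prolyl hydroxylase, rose by 0.42, 0.70 and 0.34 in males, females and flutamide-treated males (adjusted p = 0.012, 1.4e-04 and 0.045). Plod2, the lysyl hydroxylase that acts on collagen telopeptides, had a GD18 male excess over the flutamide group of 0.50 (adjusted p = 3.5e-04), and the flutamide group differed from females by -0.56 (adjusted p = 8.8e-04). Of the 7 chaperone and secretion genes measured, 1 was higher and 2 lower in males, 1 and 1 in females, and 0 in flutamide-treated males. Serpinh1, the collagen chaperone, was lower on GD18 in males at -0.34 (adjusted p = 0.0075), and Sparc was higher in males and females by 0.33 and 0.38. Mia3, needed for export of large cargo, was higher in flutamide-treated males than in females at GD17 by 0.34 (adjusted p = 0.037).

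Outside the cell, 1 of 6 genes of propeptide cleavage was called, Pcolce2, an enhancer of procollagen cleavage, which rose by 1.24, 1.14 and 0.98 in males, females and flutamide-treated males (adjusted p = 1.3e-05, 8.8e-06 and 1.1e-04). Of the 4 crosslinking enzymes measured, Loxl1 rose by 0.26, 0.55 and 0.47, and Lox by 0.28 in males and 0.61 in females. Of the 7 receptors, Mrc2, which takes up collagen, rose by 0.58, 0.75 and 0.58, and Ddr1 by 0.41, 0.78 and 0.68. Itga1, the alpha chain of an integrin that binds type IV, rose by 0.35 in males and 0.44 in females.

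Among the 8 fibril-binding proteoglycans, Ogn (osteoglycin) had a male excess over females of 0.54 at GD17 (adjusted p = 4.7e-04) and one over the flutamide group of 0.52 on GD17 (adjusted p = 0.0022) and 0.58 on GD18 (adjusted p = 2.4e-04). Dcn, the gene of decorin, had a male excess over the flutamide group of 0.75 at GD17 (adjusted p = 0.047). With day, Bgn rose by 0.51, 0.79 and 0.47 in males, females and flutamide-treated males and Fmod fell by 1.09, 1.27 and 1.17. In males 2 of the 8 were called higher and 2 lower on GD18, in females 2 and 1, and in flutamide-treated males 3 and 1.

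The marker lists of other tissues were counted in the same comparisons. Over all genes, 17.7% were called higher on GD18 in males, 17.2% in females and 13% in flutamide-treated males, and 12.4%, 22.5% and 13.8% lower. At GD17, 1.67% of all genes were called between the sexes and 2.69% between males and flutamide-treated males. Of 5 smooth muscle markers, 0 separated the sexes at GD17, 1 had a male excess over the flutamide group at that day, and 3 were lower on GD18 in males. Lung fibroblast markers were called higher on GD18 for 3, 5 and 4 of 7 in males, females and flutamide-treated males. Exocrine pancreas genes were called in 0 of 8 between males and females at GD17, where their sums ran from 590.9 to 9570 in 17 m and from 731.9 to 11998 in 17 f, and 6 of 8 were lower on GD18 in females. Skeletal muscle genes (8) had sums from 1097 to 30739 and liver genes (7) from 1899 to 63950, with 1 muscle gene higher in 18 flut than in 17 flut and 2 liver genes lower in 18 f than in 17 f. Of the 8 squamous genes 1 was lower in GD17 males than females, as was 1 of the 4 erythroid genes measured. All 3 Y-linked genes measured had a called male excess over females on both days, and Xist lower.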

How the data were processed

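Lung RNA of 18 fetal pools was hybridised to Affymetrix MOE430 2.0 arrays. The deposited intensity values were made by the authors from images read in GCOS v1.4, with RMA, which corrects background, normalizes between arrays and gives 1 value per probe set and array. These intensities were on a linear scale (6.61 to 30228), so log2 was taken here. The submitters' processing notes name limma, with no version. Of 45101 probe sets, 64 controls were left out and 45037 tested, of which 34945 had 1 gene symbol, 932 several and 9160 none in the platform annotation. Genes were not named from probe sets with several symbols.

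A model of 6 group means over all 18 arrays was fitted with limma 3.58.1 in R 4.3.3 (12 residual degrees of freedom) and p-values were adjusted by Benjamini-Hochberg over all probe sets within each of 9 comparisons and 2 interactions. The fit was tested on simulated data. Comparisons that use the same pools are not independent. Per-pool values are given for the genes called in at least 3 comparisons, for Col1a1, Col5a1, Col6a1 and Col6a3, and for the gene with the smallest p of each class in each comparison. Of the lists of collagen-processing and partner genes, at most 4 called genes are named per comparison. The collagen genes, their classes and the gene lists were chosen with earlier results of these data known. Alternatives were other normalizations, array weights, removal of dim probe sets, fits of the compared groups alone, a replicate block, any probe set of a gene and pools left out. Array number limits the precision. Marker and pathway genes without a probe set of their own were not analysed here.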

Additional observations from a re-analysis of the deposited data

Results flagged for a closer look

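For 6 collagen genes the sex difference was itself different on the 2 days, by the test of the sex by day interaction, where a negative value means a male excess that was smaller or reversed on GD18. The interaction was -0.47 for Col1a1, -0.48 for Col5a1, -0.58 for Col6a1, -0.47 for Col6a2, -0.43 for Col6a3 and -0.43 for Col14a1. For Col5a1 the difference between males and flutamide-treated males also differed between the days, with an interaction of flutamide with day of -0.60. The male pools enter both interactions.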

How the results depend on the processing

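Of 76 called differences of the named collagen genes, 57 were called in every planned fit that left out no pool, 46 in every fit run, and 0 changed sign. Counts of called collagen genes moved by over 1.5 times as follows, and the cause was not tested. In 17 m against 17 f (4) they were 2 with arrays centred on their medians, 7 with dim probe sets left out, 10 with array weights, 0 in a fit of these groups alone and 8 with any probe set of a gene. In 17 m against 17 flut (3) the count was 6 with any probe set. In 18 m against 18 f (1) it was 2 without dim probe sets, 5 with array weights and 0 in the groups alone. In 18 m against 18 flut (0) it was 1 with quantile normalization, 1 without dim probe sets, 4 with array weights and 1 with any probe set. In 18 m against 17 m (20) it was 13 in the groups alone. In 17 flut against 17 f (2) it was 5 with quantile normalization, 4 without dim probe sets, 12 with array weights and 10 in the groups alone. In 18 flut against 18 f (0) it was 1 with array weights. The sex by day interaction (6) gave 10 with quantile normalization, 11 with array weights and 10 with any probe set, and the flutamide by day interaction (1) 3 without dim probe sets and 0 in the groups alone.

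The alternatives on doubted pools were chosen after seeing the data. Without the 3 pools high in pancreas genes, 0 collagen genes were called in 17 m against 17 f and 0 in 17 flut against 17 f. With a term for these pools the counts were 1 and 0, and 1 in 18 m against 18 flut. Without 18 m 3 and 18 flut 3 they were 2 in 18 m against 18 f and 7 in 17 flut against 17 f, and without the 2 muscle-high pools 0 in 18 m against 18 f.

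On leaving out single pools, counts ran from 0 to 10 in 17 m against 17 f, 2 to 4 in 17 m against 17 flut, 0 to 2 in 18 m against 18 f, 17 to 20 in 18 m against 17 m, 22 to 24 in 18 f against 17 f, 14 to 17 in 18 flut against 17 flut, 0 to 4 in 17 flut against 17 f and 3 to 11 in the sex by day interaction. They stayed at 0 in 18 flut against 18 m and 18 f and at 1 in the flutamide by day interaction.

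Replicate numbers were not found to pair the pools, since deviations of same-numbered pools correlated between -0.32 and 0.37 and in no comparison were all above 0.1. With the replicate block the count was 0 in 18 m against 18 f, 4 in 17 m against 17 f, 3 in 17 m against 17 flut, 19 in 18 m against 17 m, 23 in 18 f against 17 f, 19 in 18 flut against 17 flut and 6 in the sex by day interaction.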

Other observations

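Of the 42 collagen genes, 27 had further probe sets, whose values are given here without an account of why probe sets of a gene differ. Col3a1, the type III gene, was called on its other probe set at GD17, with males higher than females by 0.35 (adjusted p = 0.019) and higher than flutamide-treated males by 0.40 (adjusted p = 0.015), and its sex by day interaction there was -0.51 (adjusted p = 0.013). For Col5a1 and Col5a2 other probe sets gave male excesses over flutamide-treated males of 0.35 (adjusted p = 0.011) and 0.34 (adjusted p = 0.017). The other Col1a1 probe set was not called in that comparison, at 0.19 (adjusted p = 0.21), but was called in the sex by day interaction, at -0.44 (adjusted p = 0.033).

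A Col1a2 probe set differed from the other probe sets of its gene in the males. It fell by 0.62 from GD17 to GD18 in males (adjusted p = 3.0e-04) and rose by 0.40 in females (adjusted p = 0.0051), against 0.05 and -0.02 in males on the other 2 probe sets. At GD17 its male excess was 0.67 over females (adjusted p = 0.0011) and 0.66 over flutamide-treated males (adjusted p = 0.0035). Probe sets of Col20a1 went opposite ways with day in males, with 0.28 on the probe set of the highest mean and -0.25 on another (adjusted p = 0.025). For Col14a1 another probe set was called between males and flutamide-treated males of GD18, at -0.28 (adjusted p = 0.032), where none of the 42 chosen probe sets was.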
